A study of Homo sapiens with 2 samples.

Results

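Interferon-stimulated genes are the genes that cells switch on after sensing interferon. The 40 members described here are human genes known by this property, taken by name from a list and not by any value of these libraries, out of 20163 protein-coding genes of the annotation. Their promoters were followed in ATAC-seq peak lists, in which the transposase Tn5 cuts open chromatin and tags pile up where the DNA is accessible. A peak belonged to a gene when any of its bases came to within 3 kb of the gene's transcription start site (TSS), and the promoter height was the tallest such peak in tags per 1000000 tags kept for peak calling (RPM).

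The cells were of the established line G401, derived from malignant rhabdoid tumor, a childhood cancer defined by loss of the chromatin remodeler subunit SMARCB1. Both cultures grew in DMEM with serum and 2-mercaptoethanol for 3 days, with DMSO, the solvent, in the control and with 3 µM MAK683 in the treated culture. MAK683 is a ligand of EED, which belongs to Polycomb repressive complex PRC2, and prevents the methylation of lysine 27 of histone H3 by that complex. There was 1 library per condition, so replicate error is unknown and p-values are not given. Every difference below is a difference between these libraries. Intervals of heights and ratios cover counting error only. Those of shares and medians cover the spread over genes, taken as independent although some members share a peak.

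Type I and type III interferons bind receptors at the cell surface and activate the kinases JAK1 and TYK2. These phosphorylate STAT factors, STAT2 among them, which join IRF9 and bind the interferon-stimulated response element (ISRE) in target promoters. Type II interferon acts through JAK1 and JAK2, and its response runs through the GAS element. The target genes encode proteins that block viral entry, translation and replication, and many of them are also known to be transcribed at a low level without interferon.

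Tags kept for peak calling numbered 16598348 in DMSO and 18265284 in MAK683, so that 1 tag equalled 0.0602 and 0.0547 RPM. On the main chromosomes 114060 and 161184 peaks were listed, the lowest with 6 tags in both. Among protein-coding promoters with a peak, the median height was 1.93 RPM in DMSO and 1.31 RPM in MAK683. Over the 16247 genes with a promoter peak in either library, the median log2 ratio of heights (MAK683 over DMSO) was -0.42, and member values are read beside it. The SMARCB1 promoter had no peak and lay in a stretch of 668.6 kb on chromosome 22 without a peak in either library. Of the leukocyte markers, PTPRC, CD3E, CD14 and LYZ had no promoter peak in either library. CD79A held 20 tags in DMSO and 14 in MAK683. Of the endothelial markers CDH5 had a peak of 11 tags in MAK683 only, and PECAM1 was not measured.

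Promoter sequences come first, because the ISRE is what most members share although the list was not chosen by sequence. The ISRE was searched as GAAANNGAAA and the GAS element as TTCNNNGAA, on both strands, from 250 bp before to 50 bp after the TSS. An ISRE match was present in 24 of 40 members (60%), against 3.32% of all protein-coding promoters of the same length. GAS matches occurred in 11 members (27.5%), against 6.49% of all. Either motif was found in 30 members (75%, all genes 9.46%) and both in 5 (12.5%, all genes 0.352%). The members with both motifs were BST2, EPSTI1, IFI27, IFITM1 and PARP14, and in all of them except PARP14 a GAS match overlapped an ISRE match. PARP9 and DTX3L start close together on opposite strands and share 1 ISRE match, which is counted for both. A match is a stretch of letters and does not show that a factor was bound.

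The 150 bp before the TSS of 6 members follow, read from GRCh37 5′ to 3′ along the strand of the gene, with ISRE matches in capitals. A match on the opposite strand reads as its reverse complement. IFI6, IFIT1 and ISG15 were open in both libraries, RSAD2 had a peak in MAK683 only, and EPSTI1 and SAMD9 had no peak in either library despite a match.
IFI6, chr1:27998704-27998853, minus strand: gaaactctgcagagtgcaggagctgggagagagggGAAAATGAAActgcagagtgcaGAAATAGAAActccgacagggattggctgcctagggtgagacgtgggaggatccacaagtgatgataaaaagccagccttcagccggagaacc
IFIT1, chr10:91152230-91152379, plus strand: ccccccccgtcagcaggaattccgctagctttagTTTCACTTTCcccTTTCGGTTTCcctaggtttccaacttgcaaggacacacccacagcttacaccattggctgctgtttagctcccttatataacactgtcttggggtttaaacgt
ISG15, chr1:948727-948876, plus strand: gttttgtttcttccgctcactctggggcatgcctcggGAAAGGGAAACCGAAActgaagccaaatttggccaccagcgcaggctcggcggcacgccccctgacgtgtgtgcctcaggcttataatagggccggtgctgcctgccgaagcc
RSAD2, chr2:7017758-7017907, plus strand: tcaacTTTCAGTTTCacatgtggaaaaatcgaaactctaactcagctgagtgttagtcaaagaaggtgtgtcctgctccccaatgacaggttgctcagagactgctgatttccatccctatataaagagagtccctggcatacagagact
EPSTI1, chr13:43566378-43566527, minus strand: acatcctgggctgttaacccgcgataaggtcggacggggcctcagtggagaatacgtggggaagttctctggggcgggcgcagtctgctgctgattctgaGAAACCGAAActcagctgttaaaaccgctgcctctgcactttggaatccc
SAMD9, chr7:92747293-92747442, minus strand: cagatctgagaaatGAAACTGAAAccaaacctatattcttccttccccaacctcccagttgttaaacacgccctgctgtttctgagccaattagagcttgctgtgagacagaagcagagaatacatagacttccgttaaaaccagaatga

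The matches in capitals are alike by construction, since the search fixed every letter except the NN. Their likeness is therefore not a result, and only their positions are described. ISG15 carried overlapping matches beginning 113 and 107 bp upstream of its TSS. IFIT1 carried matches beginning 116 and 103 bp upstream, both on the opposite strand. IFI6 had matches beginning 115 and 93 bp upstream. Another, beginning at 156 bp, lies only partly inside the printed stretch and is not in capitals. The single match began at 145 bp in RSAD2, at 136 bp in SAMD9 and at 50 bp in EPSTI1.

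Most member promoters had a peak in the DMSO library, and few of them differed in this between the libraries. In DMSO 27 of 40 members had a promoter peak (67.5%, 95% Wilson interval 52.0 to 79.9), against 72.7% of all protein-coding genes. In MAK683 30 members had one (75%, 59.8 to 85.8), against 78.7% of all. The intervals of the members include the share of all genes in both libraries. A peak was present in both libraries at 25 members, in DMSO only at 2, in MAK683 only at 5 and in neither at 8. Peaks in MAK683 only were thus seen at 12.5% of members (5.46 to 26.1), beside a background of 7.87%. Peaks in DMSO only were seen at 5% (1.38 to 16.5), beside 1.84%. Members without any peak made up 20.0%, and all genes 19.4%.

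**Figure D1:**
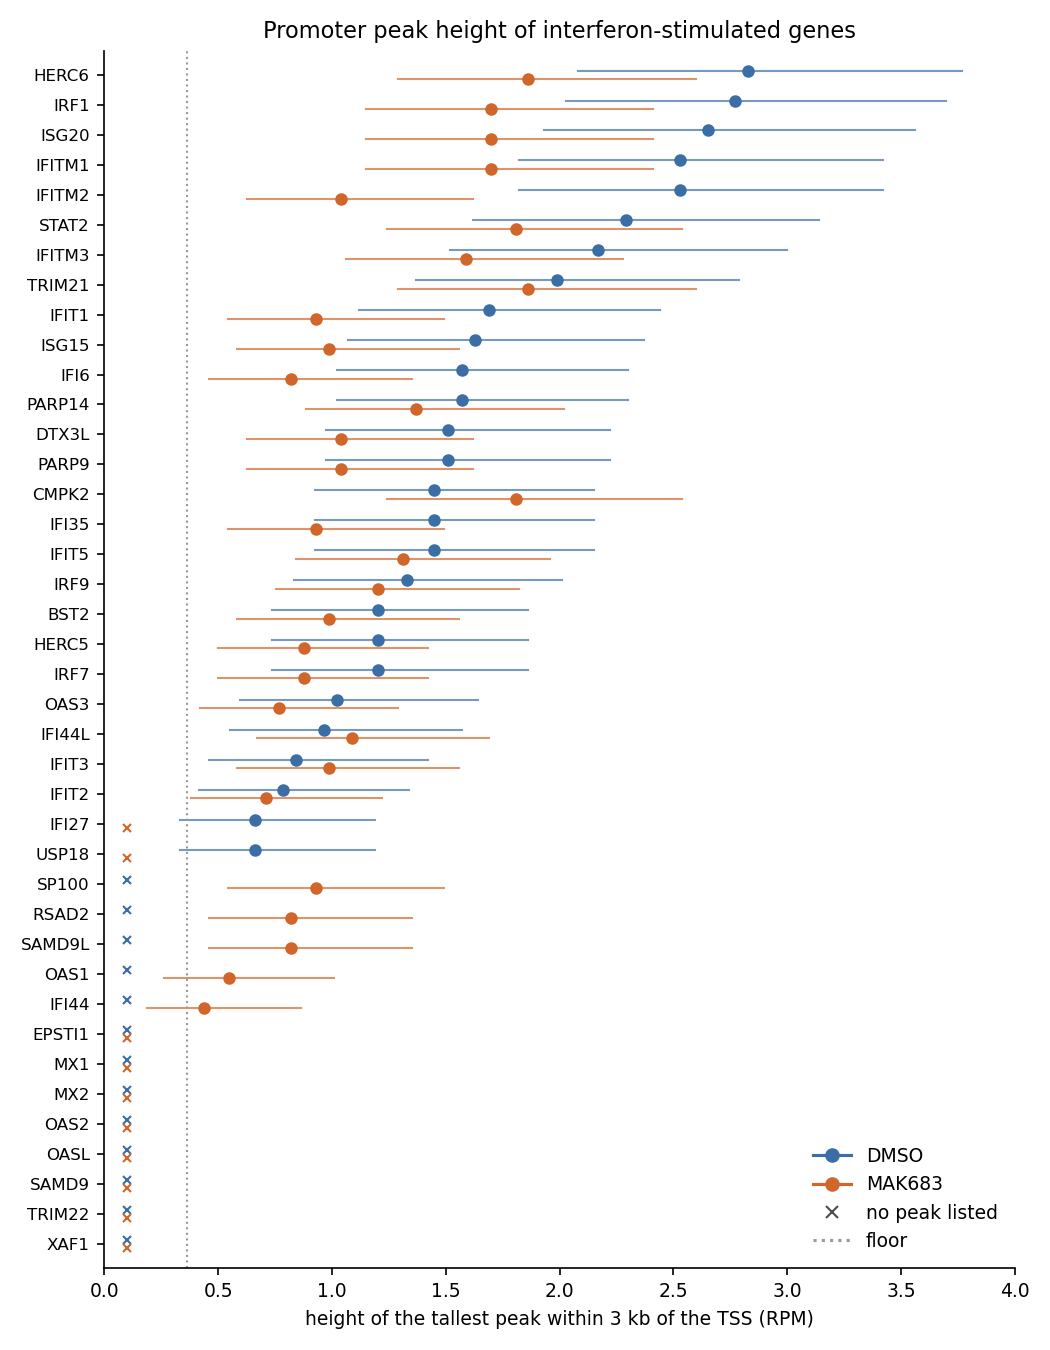
Height of the tallest peak within 3 kb of the TSS for each of the 40 members, in RPM, with DMSO in blue and MAK683 in orange. Bars are 95% exact counting intervals, crosses mark a library with no listed peak, and the dotted line is the floor of 0.361 RPM. Most blue points lie to the right of their orange partner, and the intervals of nearly every pair overlap.

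Where peaks were present, their median height was below that of all genes, although the member interval included or reached the value of all genes in both libraries. The median member height was 1.51 RPM in DMSO (95% order-statistic interval 1.20 to 1.99, range 0.663 to 2.83), against 1.93 for all genes. In MAK683 it was 1.01 RPM (0.931 to 1.31, range 0.438 to 1.86), against 1.31. Member peaks were also shorter, with a median length of 1370 bp in DMSO and 979 bp in MAK683, against 1631 and 1320 bp for all genes. The tallest summit lay within 1 kb of the TSS at 22 of the 27 members in DMSO (81.5%, all genes 82.2%) and at 24 of the 30 in MAK683 (80%, all genes 79.4%).

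The members were lower in MAK683 about as often, and by the same median, as promoters in general. Over the 25 members with peaks in both, the log2 ratio had a median of -0.46 (-0.61 to -0.19), and the 14288 protein-coding genes with both peaks had -0.46 too. Of these members 22 were lower and 3 were higher in MAK683, which is 12.0% higher, beside 13.5% of all genes with both. With the members that had a peak in 1 library only set against a floor of 0.361 RPM, the lowest height both libraries could list, 32 members had a median of -0.43 (-0.61 to -0.14). Against the median of all genes, 16 of the 32 lay above and 16 below. By this count 8 members were higher in MAK683 (25%, background 21.5%) and 4 were at least 1.5-fold higher (12.5%, background 9.64%). All 4 had a peak in MAK683 only, so their ratios were taken against the floor and not against a listed DMSO height. Only the lowest MAK683 peaks, at 0.328 RPM, could fall below that floor. At least 1.5-fold lower heights were found at 10 members (31.2%, background 32.8%). The 95% counting interval of the ratio lay below 0 at 3 members, IFITM2, IFI6 and IRF1, and above 0 at none. Among all genes with both peaks it lay below 0 at 20.6% and above at 0.931%.

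**Figure D2:**
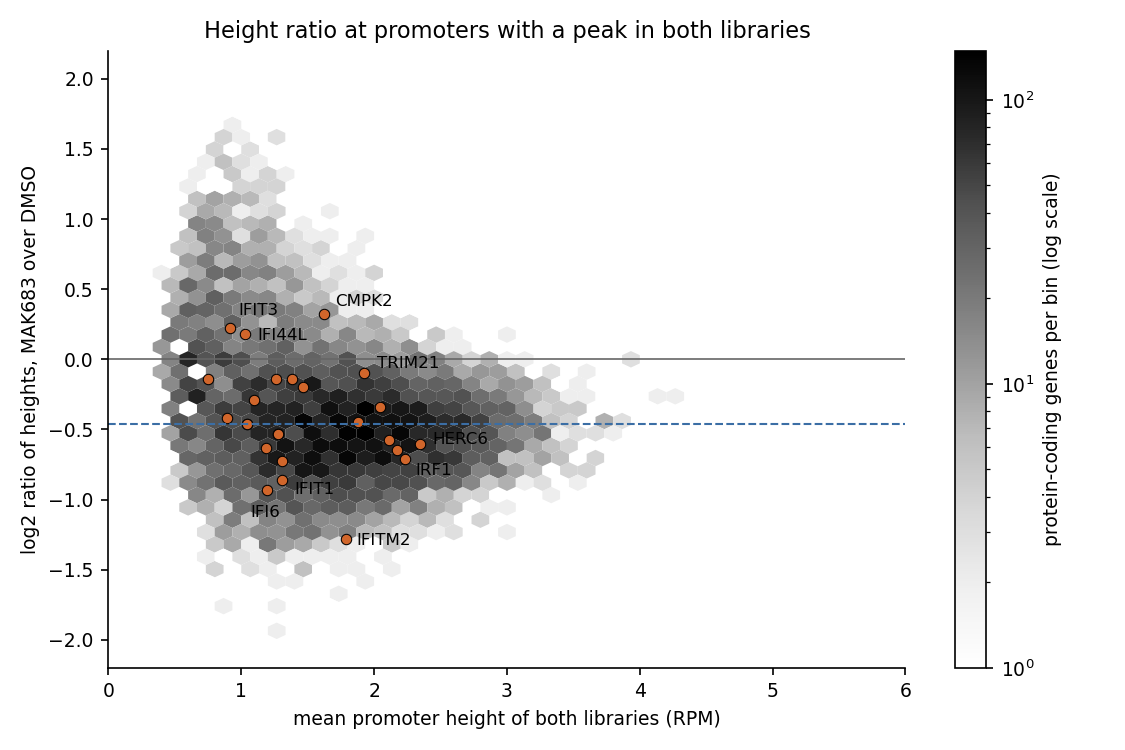
Log2 ratio of promoter heights (MAK683 over DMSO) against the mean height of both libraries in RPM, for genes with a peak in both. Grey bins count the 14288 protein-coding genes on a log scale, orange points are the 25 members, and the dashed line is the median of all genes at -0.46. The members spread around the dashed line, from -1.28 at IFITM2 to 0.32 at CMPK2.

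Of the 5 members that act in signalling and transcription, STAT2, IRF9, IRF1 and IRF7 were open in both libraries and the feedback inhibitor USP18 was not. STAT2, a subunit of the ISRE-binding complex, had a promoter height of 2.29 RPM in DMSO (38 tags) and 1.81 RPM in MAK683 (33 tags), a log2 ratio of -0.34 (-1.01 to 0.33). IRF9, the DNA-binding subunit of that complex, held 22 tags in each library, 1.33 and 1.20 RPM, with a log2 ratio of -0.14 (-0.99 to 0.71). Neither interval leaves out 0. IRF1, a transcription factor that interferon induces through a GAS element, stood among the tallest members at 2.77 RPM in DMSO (46 tags, 2.03 to 3.70). In MAK683 it measured 1.70 RPM (31 tags, 1.15 to 2.41), for a log2 ratio of -0.71 (-1.36 to -0.05). The IRF1 peaks covered chr5:131825539-131827806 in DMSO and chr5:131825843-131828108 in MAK683, with summits 137 and 88 bp upstream of the TSS. Its promoter held a GAS match beginning 124 bp upstream and no ISRE match. IRF7, which amplifies interferon production, measured 1.20 RPM (20 tags) and 0.876 RPM (16 tags), a log2 ratio of -0.46 (-1.41 to 0.49).

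USP18, a protease that removes ISG15 from proteins and dampens receptor signalling, had the only promoter peak of this group that one library lacked. In DMSO it held 11 tags, 0.663 RPM (0.331 to 1.19), at chr22:18632501-18632740, with the summit 297 bp upstream of the TSS and outside the gene. No peak was listed in MAK683 within 3 kb, and the nearest summit lay 7146 bp downstream. The DMSO peak ended upstream of both ISRE matches of the promoter. USP18 has close copies in the genome, so the placement of its tags is uncertain. A peak of 11 tags lies near the lowest height that could be listed, and the difference was not detectable beyond counting error at this depth.

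The IFIT genes encode proteins that recognise foreign RNA and block its translation, and the 4 members sit together on chromosome 10. All 4 had a promoter peak in both libraries and 2 to 3 ISRE matches each, every one on the strand opposite to the gene. IFIT1 measured 1.69 RPM in DMSO (28 tags, 1.12 to 2.44) and 0.931 RPM in MAK683 (17 tags, 0.542 to 1.49), a log2 ratio of -0.86 (-1.73 to 0.01). IFIT3 went the other way, with 0.843 RPM (14 tags, 0.461 to 1.42) against 0.985 RPM (18 tags, 0.584 to 1.56) and a log2 ratio of 0.22 (-0.78 to 1.23). IFIT5 held 24 tags in each library, 1.45 and 1.31 RPM, and IFIT2 held 13 in each, 0.783 and 0.712 RPM, so that both had a log2 ratio of -0.14. IFIT1 was the tallest of the 4 in DMSO and IFIT5 in MAK683. The intervals of the ratios overlapped among all 4, and each includes 0. These genes are close copies of one another, and tags from their shared sequence could have been placed at another member.

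The IFITM genes encode membrane proteins that stop viruses from fusing with the cell, and they were among the tallest members. IFITM1 measured 2.53 RPM in DMSO (42 tags, 1.82 to 3.42) and 1.70 RPM in MAK683 (31 tags, 1.15 to 2.41), a log2 ratio of -0.58 (-1.25 to 0.09). IFITM3 measured 2.17 RPM (36 tags) and 1.59 RPM (29 tags), a log2 ratio of -0.45 (-1.16 to 0.26). In DMSO a single peak of 4967 bp ran from chr11:310775-315741 across the IFITM1 start, and the same peak reached the 3 kb window of IFITM2. IFITM2 therefore had the height of IFITM1 in DMSO, from a summit 6118 bp away, against 1.04 RPM (19 tags, 0.626 to 1.62) in MAK683. This gave the lowest log2 ratio among the members, -1.28 (-2.06 to -0.50). The value depends on which peaks are compared. Without the neighbour's peak, the log2 ratio of IFITM2 was -0.35 with only summits inside the window counted. It was -0.79 with a 1 kb window and -1.43 with the peaks nearest to the TSS. The peak at the IFITM2 start itself held 22 tags in DMSO, 1.33 RPM with its summit 298 bp downstream of the TSS. In MAK683 a peak of 14 tags, 0.766 RPM, had its summit 312 bp downstream, and this pair gave the -0.79. The nearest summit in MAK683 lay 272 bp upstream in a peak of 9 tags, 0.493 RPM, so the -1.43 compares different sites. The -0.35 does so too, with a MAK683 summit 2283 bp downstream. The IFITM coding sequences are near copies, which makes tag placement uncertain here as well.

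The OAS genes encode enzymes that make 2'-5'-linked oligoadenylate, the activator of the nuclease RNase L, and of the 4 members OAS3 alone was open in both libraries. OAS3 measured 1.02 RPM in DMSO (17 tags, 0.597 to 1.64) and 0.766 RPM in MAK683 (14 tags, 0.419 to 1.29), a log2 ratio of -0.42 (-1.44 to 0.60). OAS1 had no DMSO peak within 3 kb, and in MAK683 a peak of 10 tags, 0.547 RPM (0.263 to 1.01), covered chr12:113344723-113345020. Its summit lay 86 bp downstream of the TSS, in the coding part of the first exon. The interval of this height includes the floor of 0.361 RPM. OAS2 and OASL lacked a promoter peak in both libraries, and their nearest summits lay 14504 and 21234 bp from the TSS in DMSO and 14508 and 20995 bp away in MAK683. OAS1, OAS3 and OAS2 follow one another on chromosome 12, and the open promoter of OAS3 stands between the others.

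MX1 and MX2, the dynamin-like GTPases that trap incoming viruses, had no promoter peak in either library. They lie on chromosome 21 in a stretch from chr21:40828799-43031702 in which neither list holds a peak, 2203 kb with 9 protein-coding starts. The nearest summit to MX1 lay 301040 bp away in DMSO and 233614 bp in MAK683. Of those 9 starts, 6 had a CpG-rich promoter, a class with a peak at 90.3% of its members across the genome in DMSO. Among all peak-free stretches, those across unsequenced gaps included, 80 were at least as long and 5 held as many CpG-rich starts, this one counted in both. It ranked 58 by length among stretches with few unknown bases. Peak numbering in both lists has no gaps. The lists show neither coverage nor copy number, so absent DNA and closed chromatin cannot be told apart here. MX1 had no ISRE match in the GENCODE window and 1 in the RefSeq promoter window, which starts elsewhere.

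The other members with a peak in MAK683 only were SP100, RSAD2, SAMD9L and IFI44, and all stood below the median member height of 1.01 RPM in that library. SP100, a scaffold of nuclear bodies that restrict viral genomes, was the tallest at 0.931 RPM (17 tags, 0.542 to 1.49), with its summit 1747 bp upstream at chr2:231278359-231279848. A second SP100 peak of 12 tags, 0.657 RPM, had its summit 221 bp downstream of the TSS. In DMSO the nearest summit lay 3827 bp upstream. RSAD2 encodes viperin, which makes a chain-terminating nucleotide, and its peak of 15 tags, 0.821 RPM (0.460 to 1.35), covered chr2:7017658-7018388 with the summit in coding sequence 331 bp downstream. That peak included the ISRE match. The nearest DMSO summit lay 12164 bp upstream, in the peak at the CMPK2 start, which falls in an untranslated exon of another RSAD2 transcript. With the TSSs of all basic transcripts RSAD2 was therefore open in both libraries, and its log2 ratio was 0.32 in place of 1.18 against the floor. SAMD9L, a restriction factor of poxviruses, had 4 peaks in its window in MAK683 and none in DMSO. The tallest held 15 tags, 0.821 RPM, at chr7:92776280-92776621, 1257 bp downstream of the TSS in an untranslated exon. IFI44 had 8 tags, 0.438 RPM (0.189 to 0.863), in an intron 2599 bp downstream, away from its ISRE match, and the nearest DMSO summit lay 32132 bp upstream. Against the floor, SP100 was at least 1.5-fold higher, as were RSAD2, SAMD9L and OAS1, and IFI44 was not. The height intervals of OAS1 and IFI44 include the floor, and those of SP100, RSAD2 and SAMD9L do not. These intervals take the floor as exact, although it stands for an unlisted DMSO height with counting error of its own. They therefore do not show a gain over DMSO at any of these genes.

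IFI27, a mitochondrial protein of the pathway, had a peak in DMSO only. It held 11 tags, 0.663 RPM (0.331 to 1.19), at chr14:94575750-94575952, 1252 bp upstream of the TSS and in an intron of another transcript. No peak covered its ISRE matches, which begin 187 and 174 bp upstream, in either library. In MAK683 the nearest summit lay 15426 bp downstream.

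**Figure D3:**
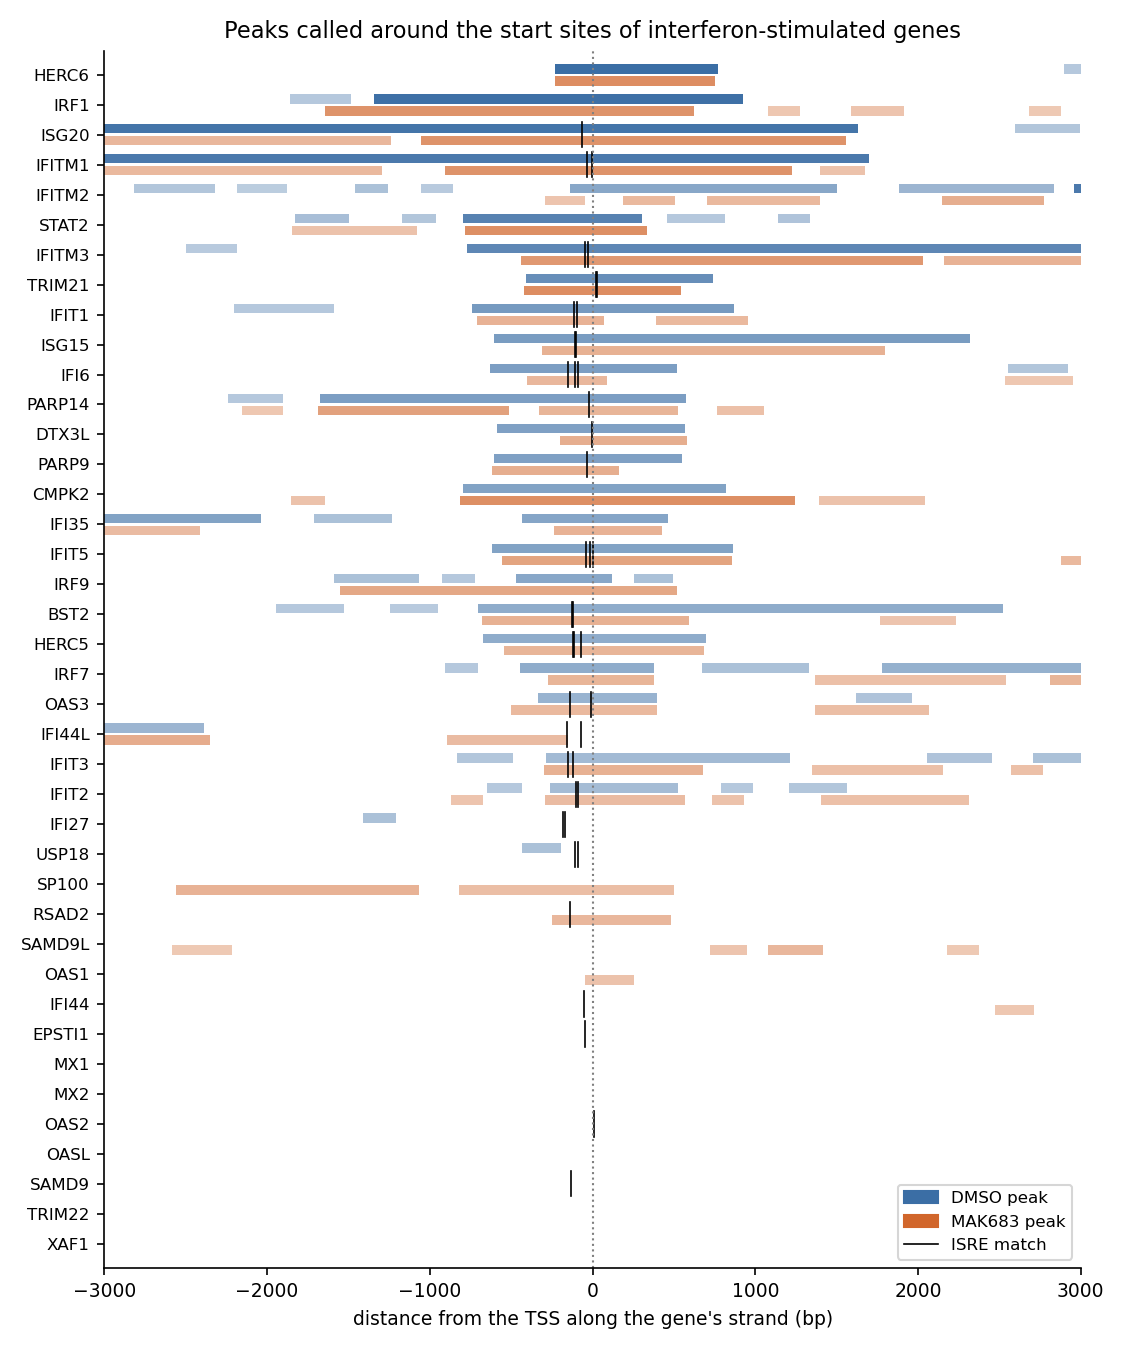
Peaks within 3 kb of each member's TSS, with distance in bp along the gene's strand, DMSO above in blue and MAK683 below in orange. Stronger colour marks a taller peak and black ticks mark ISRE matches in the 300 bp promoter window. Most ticks fall inside peaks of both libraries, while those of EPSTI1, IFI27, IFI44, OAS2, SAMD9 and USP18 fall in none.

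Among the remaining members, CMPK2 had the highest log2 ratio of those with a peak in both libraries. CMPK2, a mitochondrial nucleotide kinase that lies next to RSAD2 on chromosome 2, measured 1.45 RPM in DMSO (24 tags, 0.926 to 2.15) and 1.81 RPM in MAK683 (33 tags, 1.24 to 2.54). Its log2 ratio was 0.32 (-0.44 to 1.08). IFI44L was also higher in MAK683, with 0.964 RPM (16 tags) against 1.09 RPM (20 tags) and a log2 ratio of 0.18 (-0.76 to 1.13). Both IFI44L summits lay far from the start, 2749 and 2740 bp upstream, and with a 1 kb window its log2 ratio was 0.98 against the floor. At the start itself DMSO had no peak, and MAK683 had a peak of 13 tags, 0.712 RPM, at chr1:79085236-79085984 that covered 1 of the 2 ISRE matches. The intervals of both genes include 0.

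ISG15, the ubiquitin-like modifier, and IFI6, an inhibitor of viral replication at membranes, were both lower in MAK683. ISG15 measured 1.63 RPM in DMSO (27 tags, 1.07 to 2.37) and 0.985 RPM in MAK683 (18 tags, 0.584 to 1.56), a log2 ratio of -0.72 (-1.58 to 0.14). With the TSSs of all basic transcripts the log2 ratio of ISG15 was -0.01. IFI6 measured 1.57 RPM (26 tags, 1.02 to 2.30) and 0.821 RPM (15 tags, 0.460 to 1.35), a log2 ratio of -0.93 (-1.85 to -0.01). The IFI6 summit lay 76 bp upstream of the TSS in both libraries, while the peak covered chr1:27998187-27999336 in DMSO and only chr1:27998613-27999103 in MAK683. The ISRE matches of IFI6 stayed inside the shorter peak.

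HERC6 and HERC5 are neighbours on chromosome 4, and HERC5 is the ligase that attaches ISG15 to proteins. HERC6 was the tallest member, at 2.83 RPM in DMSO (47 tags, 2.08 to 3.77) and 1.86 RPM in MAK683 (34 tags, 1.29 to 2.60), with a log2 ratio of -0.61 (-1.24 to 0.03). HERC5 measured 1.20 RPM (20 tags) and 0.876 RPM (16 tags), a log2 ratio of -0.46 (-1.41 to 0.49). HERC6 had no motif match, and HERC5 had 3 ISRE matches. ISG20, an exonuclease of RNA, measured 2.65 RPM (44 tags, 1.93 to 3.56) and 1.70 RPM (31 tags, 1.15 to 2.41), a log2 ratio of -0.64 (-1.31 to 0.02). TRIM21, an antibody receptor in the cytosol, had nearly equal heights of 1.99 RPM (33 tags) and 1.86 RPM (34 tags), with a log2 ratio of -0.09 (-0.79 to 0.60). TRIM21 shared the highest MAK683 value with HERC6.

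PARP9 and DTX3L, partners in an ADP-ribosylation and ubiquitin complex, start back to back on chromosome 3 and share 1 peak in each library. It held 25 tags in DMSO, 1.51 RPM, and 19 tags in MAK683, 1.04 RPM, a log2 ratio of -0.53 (-1.39 to 0.33). PARP14 measured 1.57 RPM (26 tags) and 1.37 RPM (25 tags), from summits 1512 and 1529 bp upstream, a log2 ratio of -0.19 (-0.99 to 0.60). By the peaks with the summit nearest to the TSS it was -0.84. Those summits lay 1512 bp upstream in DMSO and 46 bp upstream in MAK683, so that value compares different sites. IFI35 measured 1.45 RPM (24 tags) and 0.931 RPM (17 tags), a log2 ratio of -0.64 (-1.53 to 0.26). Its tallest DMSO summit was 2810 bp upstream and its tallest MAK683 summit 273 bp downstream, so different peaks were compared. BST2, the tetherin that holds budding virions at the cell surface, measured 1.20 RPM (20 tags) and 0.985 RPM (18 tags), a log2 ratio of -0.29 (-1.21 to 0.63).

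The members without a peak were SAMD9, TRIM22, OAS2, OASL, EPSTI1, XAF1, MX1 and MX2. TRIM22 came closest, with a summit 4688 bp upstream in both libraries that held 25 tags, 1.51 RPM, in DMSO and 23 tags, 1.26 RPM, in MAK683. EPSTI1 was 20801 and 21259 bp from the nearest summit in DMSO and MAK683. SAMD9 was 54954 and 24722 bp away, and XAF1 42351 and 37941 bp. Apart from that of MX1 and MX2, the stretches without a peak around these genes ran from 42.9 kb at OASL to 79.9 kb at XAF1. EPSTI1, OAS2 and SAMD9 each had 1 ISRE match in such a stretch.

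The ISRE matches of most members lay inside peaks. Of the 24 members with a match, 16 (66.7%) had one inside a peak in both libraries, against 43.3% of the 669 protein-coding genes with a match. IFI44L and RSAD2 had a match inside a peak in MAK683 only (8.33%, all genes 5.08%), and no member did in DMSO only (all genes 2.99%). For the other 6 members the match was in no peak (25%, all genes 48.6%). Promoter peaks were found in DMSO at 19 of 24 members with an ISRE match (79.2%) and at 8 of 16 without (50%). In MAK683 the counts were 19 of 24 (79.2%) and 11 of 16 (68.8%). Over all genes the order was the reverse, with peaks at 56.8% of promoters with a match and 73.3% without in DMSO, and at 65.3% and 79.2% in MAK683. The median log2 ratio was -0.45 over the 21 members with a match and a peak, and -0.34 over the 11 without a match. All genes with a match had -0.36.

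Member promoters were poor in CpG. The ratio of observed to expected CpG in the 300 bp window had a median of 0.399, against 0.773 for all protein-coding genes, and 15 members (37.5%) reached 0.6, here called CpG-rich, against 66.9% of all genes. CpG-rich members had a promoter peak in 13 of 15 cases in DMSO (86.7%) and in 12 in MAK683 (80.0%), beside 90.3% and 93.0% of all CpG-rich genes. CpG-poor members had one in 14 of 25 cases in DMSO (56.0%, 37.1 to 73.3) and in 18 in MAK683 (72.0%, 52.4 to 85.7). The same shares of all CpG-poor genes were 37.1% and 49.8%, the first at the lower bound of the members' interval and the other below it. All 5 members with a peak in MAK683 only were CpG-poor, with ratios from 0 to 0.315, as were 68.0% of all genes with a peak in MAK683 only. The median log2 ratio of heights was -0.46 for CpG-rich and -0.14 for CpG-poor members, and the medians over all genes of each class were also -0.46 and -0.14.

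**Figure D4:**
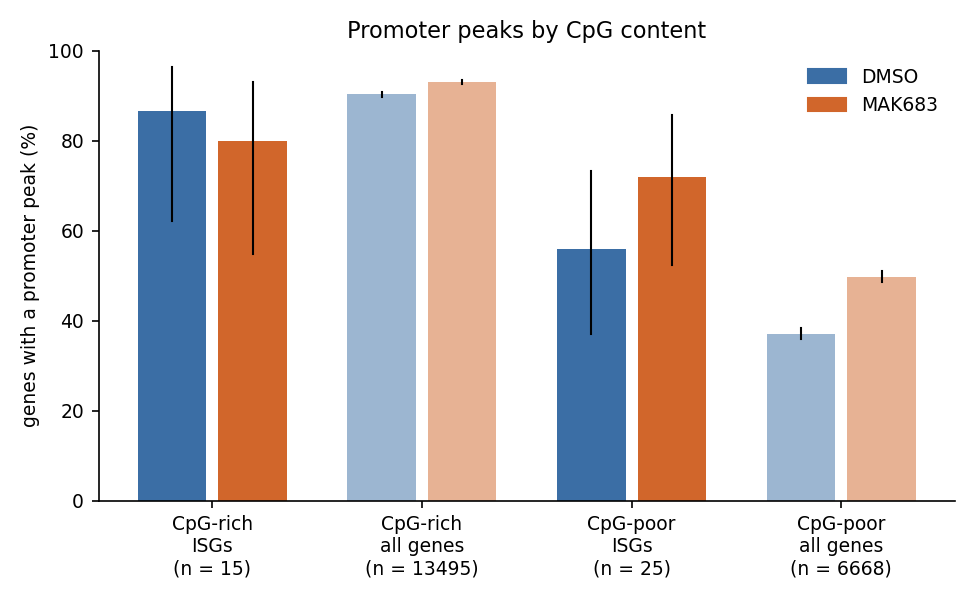
Share of genes with a promoter peak in percent, by CpG class of the promoter, in DMSO (blue) and MAK683 (orange). Dark bars are the interferon-stimulated genes (15 CpG-rich, 25 CpG-poor), pale bars are all protein-coding genes, and lines are 95% Wilson intervals. Among CpG-poor promoters the members stand at 56.0% and 72.0%, above all genes at 37.1% and 49.8%, with wide intervals.

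Peaks around the members were also counted by distance from the TSS. Within 1 kb of the TSS there were 33 peaks in DMSO and 35 in MAK683, a ratio of 1.06 (all genes 1.11), and from 1 to 3 kb there were 25 and 27, a ratio of 1.08 (all genes 1.04). From 3 to 10 kb the members had 70 and 58 peaks, a ratio of 0.829, where all genes had 0.988. From 10 to 50 kb they had 262 and 283 with a ratio of 1.08 (all genes 0.990), and since clustered members share peaks the distinct numbers were 216 and 237. Members with at least 1 peak from 10 to 50 kb numbered 28 in DMSO and 35 in MAK683 (70.0% and 87.5%), beside 79.4% and 87.7% of all genes.

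The genes that carry the interferon signal to these promoters were examined from a fixed list of 26 that are not members. Promoter peaks were present in both libraries at 19, in MAK683 only at 2, in DMSO only at 0 and in neither at 5. Of the 21 with a peak, 17 were lower and 3 were higher in MAK683 by rounded log2 ratios. IFNLR1, with 10 tags in DMSO and 11 in MAK683, had -0.00 and was counted as neither. At least 1.5-fold lower were 4, and 1 was at least 1.5-fold higher. The shares of all genes that follow used unrounded ratios. Over all genes with a promoter peak 78.4% were lower, 21.5% higher, 32.8% at least 1.5-fold lower and 9.64% at least 1.5-fold higher. The median log2 ratio was -0.35, beside -0.42 for all genes. Of the 6 ligands, IFNB1 had a peak of 17 tags, 0.931 RPM, in MAK683 only, with its summit 1691 bp downstream of the TSS. IFNE had a peak of 7 tags, 0.383 RPM, in MAK683 only, and IFNK, IFNA1, IFNG and IFNL1 had none. The IFNB1 summit lay away from the start, and its log2 ratio of 1.36 was against the floor. That value does not show a gain over DMSO. All 6 receptor genes had a peak in both libraries. The type I receptor gene IFNAR1 measured 2.53 RPM in DMSO and 1.70 RPM in MAK683, and the type II receptor gene IFNGR2 measured 1.45 and 0.712 RPM, a log2 ratio of -1.02. Of the kinases, TYK2 measured 2.35 and 1.09 RPM, the lowest log2 ratio of the list at -1.10, while JAK1 measured 1.81 and 1.59 RPM. IRF5 was the only factor of this list that was higher in MAK683, with 0.783 RPM in DMSO (13 tags) and 0.985 RPM in MAK683 (18 tags). Its summits lay far from the start, 2261 bp downstream in DMSO and 3301 bp downstream in MAK683, the latter beyond the 3 kb window. IRF8, a factor of blood cells, had no peak. Of the inhibitors, SOCS1 measured 2.23 and 1.81 RPM and PIAS1 measured 1.69 and 0.985 RPM, a log2 ratio of -0.78.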

How the data were processed

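Members and lists were chosen with earlier results of these data known. Full values went to members with a peak in 1 library only, the 5 highest and 5 lowest log2 ratios among members with a peak in both, and the 5 tallest in DMSO, and the others are given by height and ratio.

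The authors used Trim-galore on the paired 150 bp reads and Bowtie2 for alignment to hg19. Per the file headers, MACS 2.1.1.20160309 called narrow peaks separately per library without a control, at a q-value cutoff of 0.05. Per the headers, the tag shift was -100 bp, the extension was 200 bp, local background was off, reads were treated as single ends and 1 tag was kept per position. The submitters' processing notes name MACS2 2.1.0 and 2.2.7.1 instead. The deposited pileup is a signal in whole tags at the summit, unscaled for depth. Fold enrichment, as deposited, is the ratio of pileup to the genome-wide background. Both deposited scores, the −log10 p-value and the −log10 q-value, depend on depth, so only pileups were compared, and q-values and fold enrichment served as alternatives. Tags in all numbered 23901891 in DMSO and 26692938 in MAK683 before duplicates were dropped.

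Heights were pileups per 1000000 kept tags. Each TSS was that of the Ensembl canonical transcript in GENCODE 44 lifted to GRCh37, with 64449 genes. Heights have exact Clopper-Pearson, ratios Poisson normal-approximation, shares Wilson and medians order-statistic intervals, all at 95%. Reads carry no molecular identifiers, and intervals of heights and ratios cover counting error only. Those of shares and medians treat genes as independent draws. Where 1 library lacked a peak, its height was taken as 0.361 RPM, or 6 tags in DMSO. The lists hold only called peaks, so a missing peak is not a value of 0. RefSeq promoter windows (GRCh38) matched 32 of 40 members. The code was tested on simulated data. Alternatives were stricter q-values, other windows, TSS sets and height scales, and, chosen after seeing the data, leaving out MX1 and MX2 or IFITM2 and DTX3L. Python 3.11.15, numpy 2.4.6, pandas 2.3.3, scipy 1.17.1, pysam 0.24.0 and matplotlib 3.10.9 were used. Some items are not reported here.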

Additional observations from a re-analysis of the deposited data

How the results depend on the processing

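Of 77 recomputed counts and medians, 71 moved by less than 1.5 times or stayed inside the interval. Of 364 recomputed log2 ratios of single members, 363 stayed inside the counting interval of the reported value. Within 1.5-fold of the reported value stayed 348, and 3 changed sign. Leaving out members, or genes with a peak in 1 library only, could not change the remaining single values, so such repeats raise these counts. Leaving out MX1 and MX2, which had no peak, could not change the counts and medians either. The number of members higher in MAK683 fell from 8 to 4 with only peaks of −log10 q of at least 10, and to 3 with only genes that had peaks in DMSO and in MAK683, since fewer members were then compared. The number at least 1.5-fold higher was 1 at a −log10 q of at least 5, 0 at 10 and 0 with a peak in both. Without depth scaling 6 members were at least 1.5-fold lower in MAK683 in place of 10. Of the 16 log2 ratios that moved further, some were at SP100 (0.04 at a −log10 q of at least 10, from 1.36 against the lower floor), IFITM2 (-0.35 with summits inside the window), RSAD2 (0.32) and ISG15 (-0.01), both with the TSSs of all basic transcripts, and IFI27 and USP18 (-0.14 at a −log10 q of at least 5). The sign changed at IFIT2 (0.22 with all basic TSSs), TRIM21 (0.04 without depth scaling) and IFI44L (-0.44 with the nearest peak). The median log2 ratio of the members ranged from -0.46 to -0.29 over the alternatives, and its difference from all genes from -0.03 to 0.13. Members with a peak numbered 23 to 29 in DMSO and 23 to 32 in MAK683. No paired analysis was possible because there was 1 library per group, and no library could be left out. With 6 tags as the lowest listed peak, the heights of OAS1, IFI44, USP18 and IFI27 cannot be told from the floor by counting error.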
